A study of Mus musculus with 35 samples.

Results

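Peaks of acetylated histone H3 lysine 27 (H3K27ac) and of the transcription factor KLF4 were described around 6 genes of the Krüppel-like factor family: Klf2, Klf4, Klf5, Klf6, Klf9 and Klf3. These are 6 of the 21631 protein-coding genes on chromosomes 1 to 19 and X. The genes were listed by name, and every deposited peak over a gene or within 100 kb of it was taken. The study used chromatin immunoprecipitation with sequencing (ChIP-seq) to follow mouse embryonic fibroblasts (MEF) as they were reprogrammed to pluripotency. The fibroblasts came from C57BL/6 x 129 mice with a polycistronic OKSM cassette (Pou5f1, Klf4, Sox2 and Myc) in the Col1a1 locus and the doxycycline-dependent activator M2rtTA in the Rosa26 locus. The MEF group carried the cassette but had no doxycycline. The MEF input sample, which was not analysed here, is labelled with doxycycline and ascorbic acid. Cells of days 3, 6 and 9 were grown in ESC medium to which doxycycline (1 µg/ml), the inducer of the cassette, and ascorbic acid (50 µg/ml) had been added. Day 3 cells were unsorted, whereas those of days 6 and 9 had been sorted for the surface antigen SSEA1, so the sort coincides with the step from day 3 to day 6. The reference was the embryonic stem cell (ESC) line V6.5, grown with serum and LIF on irradiated feeder cells and without the cassette. A further KLF4 group was V6.5 in 2i, which adds inhibitors of MEK (1 µM) and GSK3 (3 µM). There were 12 H3K27ac libraries (3 each for days 3 and 6 and 2 for every other stage) and 10 KLF4 libraries, a pair per stage with MEF left out and ESC 2i added. For H3K27ac, MEF and ESC came only from the batch labelled DG-3458 and day 9 only from EA-3702, so batch and stage cannot be fully told apart. The serum ESC libraries of KLF4 came from the batches EA-2697 and EA-2643, which hold no reprogramming library, so for KLF4 that batch difference and the difference between serum ESC and days 3 to 9 cannot be told apart. Only batch EA-3702 holds KLF4 libraries of days 3, 6 and 9 and of ESC, the latter in 2i. Whether libraries of a stage came from separate cultures or animals is not stated, so the p-values measure the spread between these libraries, which may be technical.

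Krüppel-like factors bind CACCC elements and other GC-rich sites through zinc fingers at their C-terminal end. Klf2, Klf4 and Klf5 are known to act together, and in part in place of each other, in the self-renewal of mouse embryonic stem cells, and Klf4 is also one of the reprogramming factors. Klf6 responds to growth and injury signals in fibroblasts and epithelia, Klf9 responds to steroid and thyroid hormones, and Klf3 is mainly a repressor that recruits CtBP. H3K27ac marks active promoters and enhancers. KLF4 binding near these genes is therefore binding of a family member to the genes of its own family.

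The lists differed widely in size. The H3K27ac lists held 17493 to 88347 peaks covering 9.21 to 83.5 Mb, with the smallest at day 6 and the largest in MEF, and the KLF4 lists held 21129 to 34640 peaks covering 4.45 to 15.2 Mb. To set lists of unlike size on 1 scale, a window was taken as the gene with 100 kb to each side. The percent of a gene's window under peaks was divided by that of chromosomes 1 to 19 and X in the same list. A relative coverage of 1 thus means that the window held peaks at the average density of its list. Whether this takes out all of the list size was not tested. From MEF to the short day 6 lists of H3K27ac, mean relative coverage rose at Klf2, Klf4, Klf9 and Klf3 while mean kb under peaks fell. At Klf3 relative coverage went from 4.07 to 7.15 and kb from 29.5 to 7.89. At Klf5 and Klf6 both measures fell. Fibroblast markers (Thy1, Pdgfrb, Prrx1, Twist2, Col5a1 and Fbn1) had an H3K27ac peak at 6 of 6 genes in each MEF and day 3 library, at 2 or 3 in the day 6 and day 9 libraries and at 4 in the ESC libraries, which had been grown on feeders. Pluripotency markers (Nanog, Zfp42, Esrrb, Tdgf1, Prdm14 and Utf1) had a peak at 0 of 6 in MEF, 0 or 1 at days 3 and 6, 5 at day 9 and 6 in ESC. Of the epithelial genes Epcam, Cdh1, Krt8 and Krt18, 2 or 3 had a peak in each library up to day 6. Those of MEF and day 3 were Cdh1 and Krt8, with Krt18 in 1 day 3 library, and those of day 6 were Epcam and Cdh1. At day 9 and in ESC 4 had a peak. The part of these differences between cell populations in the results below was not tested. In such bulk samples, fewer cells with a mark and less of the mark per cell cannot be told apart.

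Peaks over the genes are given first. All 6 members had an H3K27ac peak over the gene or within 2.5 kb of it in all 12 libraries, as did 41.4% of protein-coding genes. KLF4 had such a peak in all 10 libraries at Klf4, Klf5, Klf9 and Klf3, against 23.5% of protein-coding genes. At Klf2 it had one in 7 of 10 libraries, and at Klf6 in 4 of 10, namely those of days 3 and 6. The 250 bases before the start site of 4 members are printed, to set the letters there beside the number of libraries with a peak on them, from the RefSeq promoters of GRCm38.p6, which held 5 of the 6 members. They are the member whose window held the best placed KLF4 peak of the 6 windows in 10 of 10 lists (Klf3), the reprogramming factor itself (Klf4), a hormone-responsive member with a peak in every stage (Klf9) and the member without KLF4 peaks over the gene after day 6 (Klf6). Capitals mark CACCC or its reverse complement GGGTG.
Klf3, chr5:64803271-64803520, plus strand: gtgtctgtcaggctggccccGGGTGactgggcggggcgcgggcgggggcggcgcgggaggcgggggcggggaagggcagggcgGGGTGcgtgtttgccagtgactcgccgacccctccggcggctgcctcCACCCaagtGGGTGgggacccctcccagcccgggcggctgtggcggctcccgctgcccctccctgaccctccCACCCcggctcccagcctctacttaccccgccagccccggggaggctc
Klf4, chr4:55532476-55532725, minus strand: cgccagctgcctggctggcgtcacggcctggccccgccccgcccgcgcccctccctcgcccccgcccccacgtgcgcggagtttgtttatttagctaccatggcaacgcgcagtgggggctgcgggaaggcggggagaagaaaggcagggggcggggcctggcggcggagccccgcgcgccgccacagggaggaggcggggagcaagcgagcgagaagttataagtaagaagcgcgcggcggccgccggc
Klf9, chr19:23140976-23141225, plus strand: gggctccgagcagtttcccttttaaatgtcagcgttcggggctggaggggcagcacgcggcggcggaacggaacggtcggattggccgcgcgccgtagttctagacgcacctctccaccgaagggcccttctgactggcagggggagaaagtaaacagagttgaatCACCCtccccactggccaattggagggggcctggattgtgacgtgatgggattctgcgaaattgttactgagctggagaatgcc
Klf6, chr13:5861239-5861488, plus strand: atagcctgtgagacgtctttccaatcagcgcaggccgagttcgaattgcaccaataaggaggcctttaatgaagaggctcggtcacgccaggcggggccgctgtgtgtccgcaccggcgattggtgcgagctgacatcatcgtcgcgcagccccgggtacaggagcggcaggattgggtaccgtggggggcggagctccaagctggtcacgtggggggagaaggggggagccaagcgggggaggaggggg

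The CACCC element occurred 5 times before the Klf3 start, once before those of Klf9 and Klf2, and was not found in these letters before those of Klf4 and Klf6. Over 21045 protein-coding promoter entries of the same length, 54.4% held at least 1 CACCC on either strand and 0.651% held 5 or more. The GC box GGGCGG (reverse complement CCGCCC) was found 6 times before Klf3, 4 times before Klf4, 2 times before Klf2 and 1 time before Klf6, and 43.1% of the entries held it. The longer KLF-type element GGGNGTGG (reverse complement CCACNCCC, which contains CACCC where N is C), present in 17.8% of the entries, was found before none of the 5 members. KLF4 peaks touched these 250 bases in 10 of 10 libraries at Klf3 and Klf4, 9 at Klf9, 6 at Klf2 and 2 at Klf6. H3K27ac peaks touched them in 12 of 12 libraries at Klf2, Klf4, Klf9 and Klf3 and in 9 at Klf6. These matches are a description of the letters and not of sites in use.

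Across the windows as a whole, H3K27ac differed between stages at all 6 members in the exact permutation test of the 5 stages, with Benjamini-Hochberg adjustment over 20649 genes (adjusted p from 0.00206 at Klf9 to 0.0141 at Klf3). The same test called 83.3% of all genes tested (89.9% without adjustment), so 6 of 6 lies near the background and is no particular feature of the members. The median F was 36.5 over the members and 20.0 over all genes. Among the 20 other Klf and Sp genes, 17 were called. Both ESC libraries lay above both MEF libraries at Klf2, Klf4, Klf5, Klf9 and Klf3, as at 54.3% of genes, and both MEF libraries lay above both ESC libraries at Klf6, as at 37.9% of genes. With 2 libraries against 2 an exact test cannot go below p = 0.33, and none was run.

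**Figure D1:**
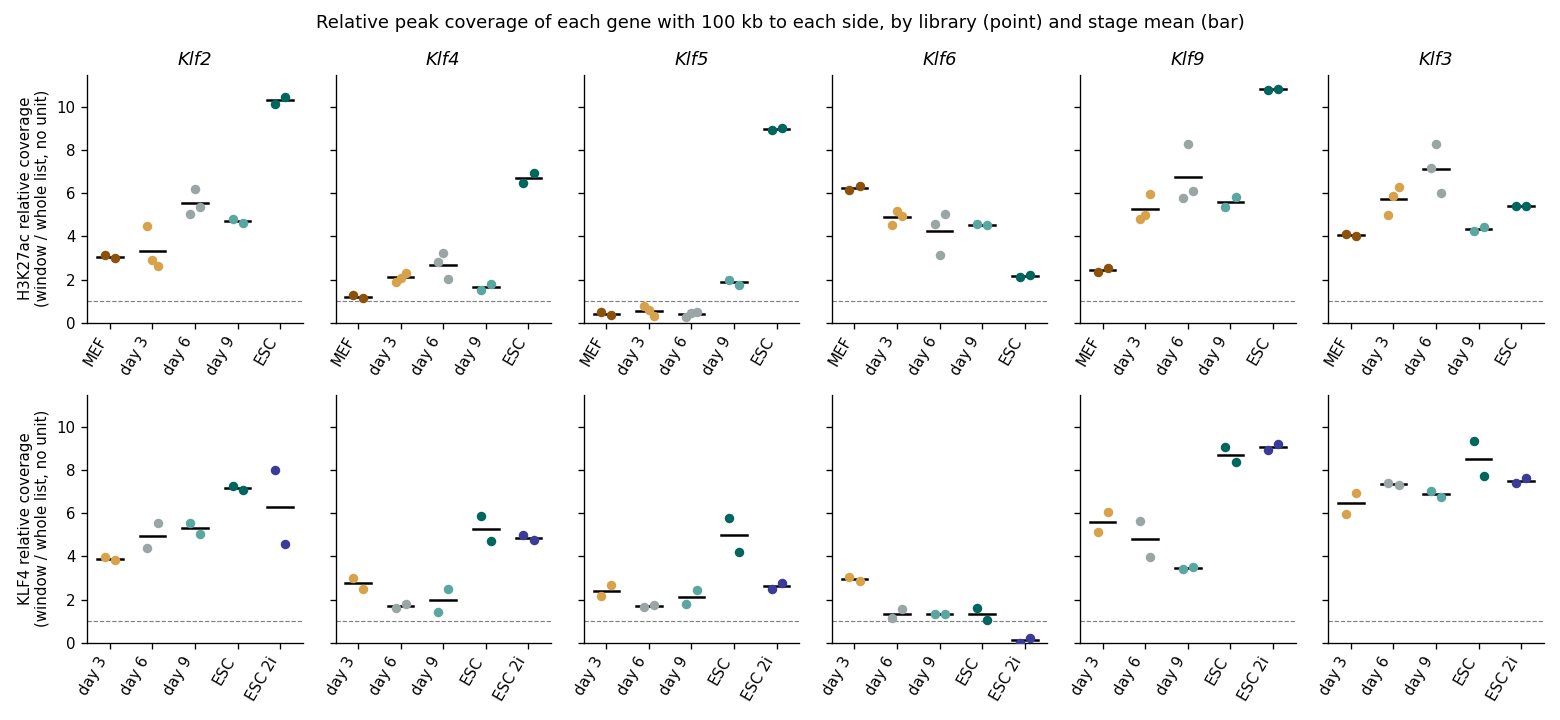
Relative coverage (no unit) of the 6 gene windows by H3K27ac peaks (upper row) and KLF4 peaks (lower row). Points are libraries, bars are stage means and the dashed line is the average of the list; H3K27ac is highest in ESC at Klf2, Klf4, Klf5 and Klf9, where the ESC libraries lie between 6.47 and 10.8, and lowest in ESC at Klf6.

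KLF4 coverage gave 0 called genes of 19980 (0% called) after adjustment in the same exact test over its 5 stages, and 28.6% had an unadjusted p of at most 0.05. Of the members, 5 of 6 were below 0.05 unadjusted (p from 0.0116 to 0.0222) and none after adjustment (adjusted p from 0.112 to 0.354). The unadjusted count depended on the setting: it was 1 of 6 with coverage not divided by that of the list (12.7% of all genes tested), 1 with a q-value of at most 0.01 (21% of genes), 1 with labels permuted within batches (19%), 2 over the gene alone (19.2%) and 3 on the flanks alone (27.7%). The exception was Klf2, at p = 0.211 in the same exact permutation test. The median F was 14.7 over the members and 2.93 over all genes. KLF4 coverage is therefore given below as values.

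Klf4 itself, on chr4:55527137-55532475 (minus strand), stands alone: no other protein-coding gene lies in its window. H3K27ac peaks covered 8.15 and 7.47 kb of the 205 kb window in MEF, 5.69, 4.94 and 4.32 kb at day 3, 2.29, 2.33 and 3.15 kb at day 6, 5.86 and 6.86 kb at day 9, and 33.5 and 33.8 kb in ESC. The ESC libraries were far above all 10 others, among which the MEF libraries were highest and the day 6 libraries lowest in kb. As relative coverage this was 1.20 ± 0.08 in MEF (SD, n = 2), 2.1 ± 0.21 at day 3 (n = 3), 2.68 ± 0.61 at day 6 (n = 3), 1.66 ± 0.17 at day 9 (n = 2) and 6.72 ± 0.34 in ESC (n = 2; adjusted p = 0.00295 in the exact permutation test). Since the cassette carries Klf4 coding sequence, the gene with 2.5 kb to each side was taken apart. There H3K27ac peaks covered 52.9% and 53.1% in MEF, 37.8% to 46.9% at day 3, 22.2% to 30.4% at day 6, 48.1% and 48.8% at day 9, and 59.97% and 58.6% in ESC, which lack the cassette. Peaks of the cassette and of the gene cannot be told apart in MEF and at days 3 to 9, which carry both. The flanks alone, without the gene, differed between stages (F = 596, adjusted p = 0.00161, exact permutation test).

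The ESC signal of Klf4 lay downstream. A block of 15.6 kb, chr4:55467799-55483395, 49.1 to 64.7 kb past the start site in the direction of transcription, was covered over 15.4 and 15.2 kb in the ESC libraries. Its best peak stood in the top 0.067% and 0.19% of those lists by the authors' p, at a deposited fold of 44.5 and 36.6. In MEF the block held 1 peak per library of 0.48 and 0.25 kb, in the top 49.5% and 67.2% of the lists, so that the rule on peaks in both stages counts it as shared. Day 3 had a peak of 0.31 kb in 1 of 3 libraries, day 6 none in 3, and day 9 peaks of 0.52 and 1.06 kb. The next region outward, chr4:55461264-55467717 (64.8 to 71.2 kb), had peaks in both ESC libraries, in the top 2.7% and 3.7%, and in none of the 10 others. The MEF region, from -9.32 to -8.61 kb, stood in the top 39.5% and 49.4% of the MEF lists and had no peak later. Over the start, the region from -2.9 to 3.49 kb had H3K27ac in all 12 libraries, in the top 0.0488% and 0.202% in MEF and the top 1.46% and 3.32% in ESC. Of the 13 H3K27ac regions of the window, 8 were in ESC and not in MEF, 1 was in MEF only and 3 were in both.

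KLF4 had peaks inside that block in the ESC lists and not in those of days 3 to 9. The region chr4:55477311-55477889, 54.6 to 55.2 kb downstream, had no peak in the 6 libraries of days 3, 6 and 9. It had one in all 4 ESC libraries, in the top 3.6% and 1.7% in serum and 1.8% and 1.2% in 2i. Within batch EA-3702 the 2i library had this peak and the 4 libraries of days 3, 6 and 9 did not. A neighbour at 56.6 to 57.1 kb had peaks in both serum libraries and 1 of 2 in 2i, and none before. By contrast the region over the Klf4 start site, chr4:55531102-55533395, had KLF4 peaks in all 10 libraries, at deposited folds of 4.19 to 13.2. A smaller site 17.3 to 17.7 kb downstream lay in an H3K27ac region with peaks in both MEF, all 3 day 3, 1 day 9 and both ESC libraries. It had KLF4 peaks in both day 3 libraries, 1 of 2 at days 6 and 9 and all 4 ESC libraries. Over the gene, a region 3.85 to 4.39 kb past the start had peaks in both day 3 libraries, 1 day 6 library and 1 ESC 2i library; since it lies over the gene, peaks of the cassette and of the locus cannot be told apart there in cells that carry both. Day 9 alone had a KLF4 region at 8.42 to 8.76 kb, in 2 of 2 libraries, next to an H3K27ac region found in 2 of 2 day 9 libraries and no other. KLF4 covered 3.57 and 1.60 kb of the window at day 3, and 1.07 and 1.11 kb at day 6. At day 9 it covered 0.952 and 1.83 kb, in ESC 2.04 and 3.28 kb, and in 2i 3.23 and 3.21 kb. Over the gene with 2.5 kb to each side, where the cassette may add peaks, KLF4 covered 29.5% and 9.92% at day 3. There it covered 9.58% and 13.9% in ESC, and 19.9% and 18.3% in 2i. On the flanks, 2 regions had KLF4 peaks in both libraries at day 3, 0 at day 6 and 1 at day 9. In ESC there were 3 such regions, and in 2i 2.

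Klf5, on chr14:99298691-99313412, shares its window with Pibf1. Its relative coverage was low in all libraries up to day 6 and high in ESC. H3K27ac peaks covered 3.28 and 2.35 kb in MEF, 2.39, 1.46 and 0.564 kb at day 3, 0.205, 0.353 and 0.782 kb at day 6, 7.94 and 7.03 kb at day 9, and 48.2 and 45.8 kb in ESC. Both day 9 libraries were above all 8 earlier ones and far below ESC. Relative coverage was 0.42 ± 0.10 in MEF (SD, n = 2), 0.55 ± 0.24 at day 3 (n = 3), 0.40 ± 0.14 at day 6 (n = 3), 1.86 ± 0.18 at day 9 (n = 2) and 8.96 ± 0.07 in ESC (n = 2; adjusted p = 0.00306 in the exact permutation test). Klf5 was the only member with both day 9 libraries above all MEF, day 3 and day 6 libraries, a pattern seen at 14.8% of genes and, among the 20 other family genes, at Klf12; this comparison was chosen after the values were seen. All day 9 H3K27ac libraries are of 1 batch, EA-3702, which also holds 1 library each of days 3 and 6, at 0.76 and 0.48 against 1.99 and 1.74.

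The Klf5 signal of ESC lay past the higher-coordinate end of the gene. A region of 13.6 kb, chr14:99331872-99345467 (33.2 to 46.8 kb from the lower end), was covered over 12.98 and 12.6 kb in ESC and had no peak in any of the 10 other libraries. The next, chr14:99346004-99358432 (47.3 to 59.7 kb), was covered over 12.4 and 11.9 kb in ESC and over 3.37 and 3.72 kb at day 9, with nothing in MEF or at days 3 and 6. Of the pair, this was the region with peaks at day 9. Of 26 regions, 18 were in ESC and not in MEF, 2 in MEF only and 2 in both. The better placed of the MEF pair, from -93.1 to -92.8 kb, stood in the top 59.7% and 67.2%. The region over the lower gene end had H3K27ac in all 12 libraries, in the top 37.2% and 32.8% in MEF and the top 4.41% and 5.09% in ESC.

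In the first region KLF4 had a peak in the 2 serum ESC libraries alone, at 41.5 to 41.9 kb in the top 37% and 42.3%. The second region had KLF4 peaks from day 3. The region chr14:99353089-99353548 (54.4 to 54.9 kb) had KLF4 peaks in all 6 libraries of days 3 to 9 and in both serum ESC libraries. Its place in the lists was the top 20% and 21% at day 3, 39% and 13% at day 6, 2.9% and 1.8% at day 9, and 78% and 55% in ESC. No 2i library had a peak there. A neighbouring region, chr14:99355347-99355937 (56.7 to 57.2 kb), had the other order: 1 of 2 libraries at days 3 and 6, both at day 9 in the top 62% and 33%, and both in ESC in the top 2.2% and 3.0%. That site kept its peaks in 2i, in the top 11% and 19%. The region over the lower-coordinate gene end, chr14:99298146-99299610, had KLF4 peaks in all 10 libraries. The window's relative KLF4 coverage was 2.18 and 2.65 at day 3, 1.63 and 1.74 at day 6, 1.77 and 2.46 at day 9, 5.77 and 4.22 in ESC, and 2.51 and 2.76 in 2i. Both serum ESC libraries were above both 2i libraries at Klf5, Klf6 and Klf3, as at 17.5% of genes; this was chosen after the values were seen, and the ESC and 2i libraries share no batch.

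Klf2, on chr8:72319062-72321654 (plus strand), lies among Fam32a, Ap1m1 and Eps15l1, so part of its window belongs to these genes. H3K27ac peaks covered 20.0 and 19.2 kb in MEF, 13.2, 6.84 and 4.81 kb at day 3, 4.08, 4.41 and 8.21 kb at day 6, 18.1 and 17.6 kb at day 9, and 51.8 and 50.3 kb in ESC. In kb the ESC libraries were far above the rest, and MEF and day 9 were above day 3 and day 6; as relative coverage ESC was again highest, but both MEF libraries were below all of day 6 and day 9. Relative coverage was 3.07 ± 0.11 in MEF (SD, n = 2), 3.34 ± 0.99 at day 3 (n = 3), 5.53 ± 0.62 at day 6 (n = 3), 4.72 ± 0.13 at day 9 (n = 2) and 10.3 ± 0.23 in ESC (n = 2; adjusted p = 0.00272, exact permutation test). Of its 39 regions, 23 were in ESC and not in MEF and 2 in MEF only. The strongest of the ESC group, chr8:72327759-72334406, 8.70 to 15.3 kb downstream, had peaks in the top 1.2% and 0.70% of the ESC lists, at deposited folds of 32.0 and 33.5. At day 9 both libraries had a peak there, at the weak end of their lists (top 82% and 67%), and no MEF, day 3 or day 6 library had one. The region over Klf2 itself, from -4.38 to 4.97 kb, had peaks in all 12 libraries, in the top 3.99% and 1.8% in MEF and the top 2.92% and 2.79% in ESC. Another region with peaks in all 12, from -79.8 to -77.6 kb, lies at Ap1m1 and stood in the top 0.266% and 0.522% in MEF and the top 7.16% and 5.51% in ESC. The better placed MEF region, from -30.8 to -29.1 kb, stood in the top 40.1% and 32.2% of the MEF lists.

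KLF4 peaks at this Klf2 block were in more libraries at later stages. The region chr8:72333927-72334791, 14.9 to 15.7 kb downstream, had a peak in 0 of 2 libraries at day 3, 1 of 2 at day 6 (top 65%), 2 of 2 at day 9 (top 11% in both), 2 of 2 in ESC (top 1.1% and 1.4%) and 2 of 2 in 2i (top 6.8% and 5.6%). A site from -3.06 to -2.5 kb, just before the start, chr8:72316004-72316559, had KLF4 peaks in all 10 libraries. It stood in the top 1.8% to 9.9% in the 8 libraries of days 3 to 9 and serum ESC, and in the top 94% and 12% in 2i. Another pair of sites, between -47.8 and -47.0 kb, had no peak at days 3 and 6. They lay in an H3K27ac region of ESC, chr8:72269836-72273214, that had a peak in 1 of 2 day 9 libraries and none before. At the far edge, within Eps15l1, the site chr8:72413833-72414502 showed the reverse: the top 1.6% to 6.5% in the 6 libraries of days 3 to 9, the top 70% and 41% in ESC, and a peak in 1 of 2 2i libraries. Relative KLF4 coverage of the window was 3.97 and 3.83 at day 3, 4.40 and 5.53 at day 6, 5.57 and 5.02 at day 9, 7.28 and 7.10 in ESC, and 8.0 and 4.59 in 2i.

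Klf9, on chr19:23141226-23168129 (plus strand, with Smc5 in its window), had the highest relative H3K27ac coverage of the members in ESC. Peaks covered 16.8 and 18.3 kb in MEF, 15.9, 13.2 and 12.3 kb at day 3, 5.26, 6.60 and 10.5 kb at day 6, 22.6 and 24.8 kb at day 9, and 61.7 and 58.2 kb in ESC. Relative coverage was 2.45 ± 0.13 in MEF (SD, n = 2), 5.26 ± 0.63 at day 3 (n = 3), 6.73 ± 1.37 at day 6 (n = 3), 5.59 ± 0.32 at day 9 (n = 2) and 10.8 ± 0.02 in ESC (n = 2; adjusted p = 0.00206, exact permutation test). Both MEF libraries were below all others on that scale, although in kb they were above all day 3 and day 6 libraries. None of its 24 regions was in MEF and not in ESC, 14 were in ESC and not in MEF, and 5 were in both. Among the 14 was the block chr19:23083073-23095076, from -58.2 to -46.2 kb upstream of the start, covered over 11.97 and 11.7 kb in ESC with best peaks in the top 0.34% and 0.17%. Peaks covered 0.739 to 1.95 kb of this block in the 3 day 3 libraries, none at day 6, and 0.322 and 0.309 kb in the day 9 libraries. The region over the start, from -1.89 to 4.51 kb, had H3K27ac in all 12 libraries, in the top 0.102% to 3.94% of the lists.

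Inside the Klf9 block, KLF4 peaks at chr19:23087286-23088094 and chr19:23089649-23090244 (from -53.9 to -53.1 and from -51.6 to -51.0 kb) were in all 4 ESC libraries and in none of the 6 libraries of days 3 to 9. The first stood in the top 0.53% and 0.98% of the serum lists and in the top 17.2% and 4.29% of the 2i lists. The second stood in the top 0.79% and 0.85% of the serum lists and in the top 0.64% and 0.17% of the 2i lists. Within batch EA-3702 both had a peak in the 2i library and none in the 4 libraries of days 3, 6 and 9. The start site region, chr19:23140016-23141694, had KLF4 peaks in all 10 libraries, in the top 1.2% and 18% at day 3 and the top 26% and 13% in ESC. An intragenic site 10.8 to 11.4 kb past the start had none at day 3 and peaks in all 8 later libraries. Sites 27.7 to 28.0, 35.1 to 35.9 and 48.3 to 48.9 kb past the start had peaks in both day 3 and both day 9 libraries and in no serum ESC library. Relative KLF4 coverage was 5.12 and 6.06 at day 3, 5.66 and 3.98 at day 6, 3.40 and 3.49 at day 9, 9.07 and 8.38 in ESC, and 8.94 and 9.22 in 2i. On this scale the 4 ESC libraries were above the other 6. In kb they overlapped them, with 6.7 and 4.27 kb at day 3, 4.11 and 2.72 kb at day 6, 2.51 and 2.81 kb at day 9, 3.48 and 6.46 kb in ESC, and 6.37 and 6.89 kb in 2i.

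Klf6, on chr13:5861489-5870393 (plus strand), has no other protein-coding gene in its window and had the reverse order of MEF and ESC. H3K27ac peaks covered 40.3 and 42.1 kb in MEF, 13.8, 12.6 and 9.34 kb at day 3, 3.83, 2.29 and 7.99 kb at day 6, 17.7 kb in both libraries at day 9, and 11.0 kb in both ESC libraries. Relative coverage was 6.24 ± 0.15 in MEF (SD, n = 2), 4.89 ± 0.34 at day 3 (n = 3), 4.26 ± 1.00 at day 6 (n = 3), 4.54 ± 0.04 at day 9 (n = 2) and 2.17 ± 0.09 in ESC (n = 2; adjusted p = 0.00600, exact permutation test). On this scale the MEF libraries were above and the ESC libraries below all others, while in kb the ESC libraries lay above day 6 and among those of day 3. Of its 20 regions, 15 were in MEF and not in ESC, 1 in ESC and not in MEF, and 4 in both. Of those 15, 11 had no peak in any library of another stage, among them chr13:5835381-5838825, from -26.1 to -22.7 kb, in the top 5.6% and 8.2% of the MEF lists. The region over the start, chr13:5859481-5867313, was marked in all 12 libraries and stood in the top 0.053% and 0.054% of the MEF lists and the top 0.82% and 0.32% of the ESC lists. Fibroblast markers, for comparison, had a peak at 6 of 6 genes in MEF and 4 of 6 in each ESC list; their part in the Klf6 values was not tested.

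KLF4 was near Klf6 mostly at day 3. It covered 3.66 and 1.85 kb at day 3, 0.755 and 0.974 kb at day 6, 0.892 and 0.973 kb at day 9, 0.567 and 0.746 kb in ESC, and 0 and 0.142 kb in 2i. Both day 3 libraries were above all others, as relative coverage (3.04 and 2.85 against at most 1.60) and in kb. Klf6 was the only member with both day 3 libraries above both ESC libraries, as were 23.9% of genes, while the reverse held for the other 5 members and 36% of genes. Those 5 became 0 when coverage was not divided by that of the list, and 3 over the gene alone. Of the ESC lists, 1 covered only 4.45 Mb. On the flanks without the gene, Klf6 too no longer had both day 3 libraries above both ESC libraries. The shares of all genes under these settings were not computed, so whether these moves are particular to the members is not known. Of its 9 KLF4 regions, 4 were at day 3 and not in ESC. The strongest of these, chr13:5871348-5872092, 9.86 to 10.6 kb past the start, was in the top 14% and 57% of the day 3 lists and in no later list. The region in most libraries, chr13:5803624-5804299, from -57.9 to -57.2 kb, had peaks in all libraries of days 3 to 9 and serum ESC, and in neither 2i library. It lay in an H3K27ac region with peaks in 11 of 12 libraries. A region from -16.6 to -16.3 kb had KLF4 peaks in the 2 serum ESC libraries alone, in the top 64.5% and 37.5%. The single H3K27ac region of ESC and not MEF, from -4.39 to -3.19 kb, stood in the top 30.3% and 26% of the ESC lists.

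Klf3, on chr5:64803521-64832901 (plus strand, with Gm38457 and Tlr1 in its window), had strong KLF4 peaks in every list. The region over its start, chr5:64802635-64804340, which covers the printed bases with 5 CACCC elements, had KLF4 peaks in all 10 libraries, and in 8 of 10 lists it stood above every other region of the 6 windows. They stood in the top 0.20% and 0.051% at day 3, 0.027% and 0.021% at day 6, 0.012% and 0.0077% at day 9, 0.28% and 0.87% in ESC, and 0.045% and 0.11% in 2i, at deposited folds of 7.01 to 43.7. A region 7.35 to 9.13 kb into the gene, chr5:64810875-64812654, also had peaks in all 10, in the top 0.50% to 12%. Of the 14 KLF4 regions of the window, 6 were present in every library of days 3, 6, 9 and serum ESC, against 15.3% of all 37138 KLF4 regions, and 5 were in all 10 libraries. A region from -56.5 to -55.7 kb had KLF4 peaks in the 6 libraries of days 3 to 9 and 1 2i library and in no serum ESC library, and one at 43.8 to 43.99 kb had peaks in both serum ESC libraries, 1 2i library and none before. Relative KLF4 coverage lay between 5.98 and 9.35 in the 10 libraries.

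At Klf3 the MEF and ESC libraries overlapped in kb under H3K27ac but not in relative coverage, and held partly different regions: of 29, 5 were in MEF and not ESC, 13 in ESC and not MEF, and 7 in both. Peaks covered 29.8 and 29.2 kb in MEF, 16.7, 15.7 and 13.1 kb at day 3, 6.57, 6.65 and 10.4 kb at day 6, 18.2 and 19.3 kb at day 9, and 31.2 and 29.4 kb in ESC. Relative coverage was 4.07 ± 0.09 in MEF (SD, n = 2), 5.73 ± 0.67 at day 3 (n = 3), 7.15 ± 1.14 at day 6 (n = 3), 4.36 ± 0.14 at day 9 (n = 2) and 5.41 ± 0.02 in ESC (n = 2; adjusted p = 0.0141 in the exact permutation test, and 0.0787 with an equal number of top peaks in each list). The best placed region of ESC and not MEF, from -5.66 to -4.67 kb, stood in the top 33.2% and 38.2% of the ESC lists. A region of 12.9 kb over the start, chr5:64802029-64814919, had peaks in all 12 libraries. Downstream, chr5:64873431-64878194 (69.9 to 74.7 kb) stood in the top 0.31% and 0.58% of the MEF lists, was weak in the 3 day 3 libraries (top 35% to 67%), and had no peak at day 6, day 9 or in ESC. The nearby region chr5:64863980-64868890 (60.5 to 65.4 kb) stood in the top 19% and 17% in MEF, had peaks in 2 of 3 libraries at day 3, none at day 6 and both at day 9 (top 61% and 70%), and stood in the top 1.5% and 3.1% in ESC. Within it KLF4 had a peak in all 10 libraries at chr5:64864565-64865265, in the top 14% and 7.9% at day 3, 14% and 15% at day 6, 1.8% and 2.6% at day 9, 0.32% and 0.061% in ESC, and 1.0% and 0.051% in 2i.

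The 6 windows together held 151 H3K27ac regions. Of these, 77 (51.0%) were in both ESC and no MEF library, 25 (16.6%) in both MEF and no ESC library, and 28 (18.5%) in all 4. Over all 106528 regions the shares were 29.6%, 39.4% and 14.9%. Klf6 held 15 of the 25 MEF regions and 1 of the 77 ESC regions. The windows held 66 KLF4 regions, of which 15 (22.7%) were kept through every library of days 3 to 9 and serum ESC, 11 (16.7%) were in both day 3 and no ESC library, and 15 (22.7%) in both ESC and no day 3 library. Over all KLF4 regions these shares were 15.3%, 19.4% and 15.6%. With a q-value of at most 0.01, 8 regions were kept and 3 were in both day 3 and no ESC library. The latter count was 19 or 21 without 1 of the day 3 libraries (EA-3702 or DG-4040), and the count in ESC and not day 3 was 30 without the ESC library of EA-2697. When every list was shortened to its best 17493 peaks, the H3K27ac counts were 18 ESC and 9 MEF regions. They were 129 and 139 ESC regions without ESC library 1 or 2, and 42 and 39 MEF regions without MEF library 1 or 2. Since the regions of a gene lie side by side, these counts have no test.

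**Figure D2:**
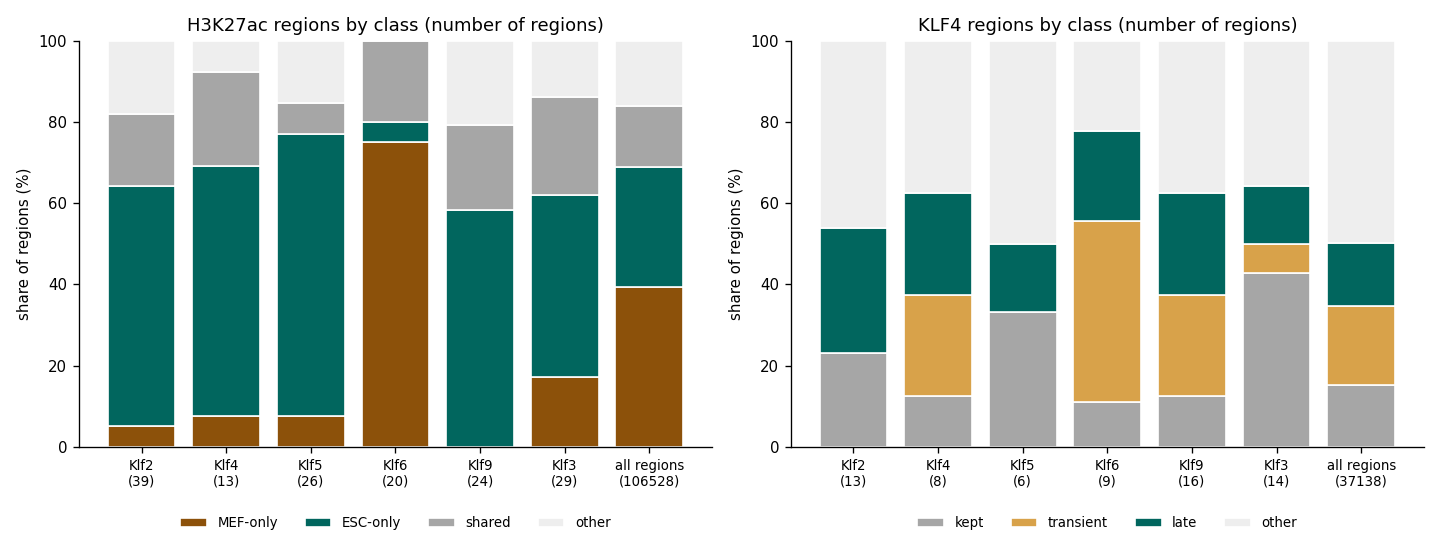
Share of H3K27ac regions (left) and KLF4 regions (right) by class in each window and over all regions, with the number of regions in brackets. Regions of MEF and not ESC make up most of the bar at Klf6, and regions of ESC and not MEF most of it at Klf2, Klf4, Klf5 and Klf9.

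KLF4 regions were set against H3K27ac of the same stage. At day 3, 64.5% ± 5.6 of the 31 KLF4 regions of these windows lay under an H3K27ac peak (SD over 3 H3K27ac libraries), beside 59.1% ± 6.0 of all KLF4 regions. At day 6 it was 48.6% ± 2.4 of 24 (n = 3), beside 46.9% ± 8.8. At day 9 it was 89.1% ± 6.6 of 32 (n = 2), beside 80.0% ± 0.2, and in ESC 87.2% of 39 in both libraries, beside 75.6% ± 0.9. The H3K27ac lists were shortest at day 6, with 17493 to 22462 peaks; the part of list length in these percents was not tested. In ESC, 5 of 5 KLF4 regions at Klf4, 8 of 8 at Klf9, 7 of 8 at Klf2, 5 of 6 at Klf5, 7 of 9 at Klf3 and 2 of 3 at Klf6 were under H3K27ac in each library.

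There were 5 regions of the windows that were over 10 kb long, as were 0.337% of the 106528 regions: the Klf4 block, both Klf5 blocks, the Klf9 block and the Klf3 start. In ESC the first 4 of these were covered over at least 11.7 kb, and at day 9 over at most 3.72 kb. These long regions were picked out after their values were seen. KLF4 regions lay in each. Those inside the Klf4 block had no peak up to day 9, and at Klf9 a region at the inner edge of the block, chr19:23095023-23095314, had 1 day 3 peak. The second Klf5 block had KLF4 peaks from day 3.

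The genes most like each member over the 12 H3K27ac libraries are given as a description, since the libraries share their stages. By Pearson's r of relative coverage they were Cln6 (0.99) and Calml4 (0.98) for Klf2, Aard and Gm20385 (both 0.99) for Klf4, Plpp4 and Zfp985 (both 0.999) for Klf5, Adam32 (0.95) and Mthfd2l (0.94) for Klf6, Atad5 (0.99) and Arhgef40 (0.98) for Klf9, and Myo1g and Cisd2 (both 0.98) for Klf3. Of the 20 other Klf and Sp genes, 15 had both ESC libraries above both MEF libraries in H3K27ac, and 3 (Klf7, Klf14 and Klf17) the reverse. Like Klf6, Klf7 had more H3K27ac coverage in MEF (mean 1.95) than in ESC (0.40), with its highest mean at day 3 (4.05), and more KLF4 coverage at day 3 (2.18) than in ESC (0.87). An H3K27ac peak over the gene in all 12 libraries was present at 11 of the 20, and a KLF4 peak in all 10 libraries at 11 of the 20. None of the 20 was called for KLF4 after adjustment in the exact permutation test, and 10 had an unadjusted p of at most 0.05.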

How the data were processed

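ChIP-seq peak lists of 12 H3K27ac and 10 KLF4 libraries were analysed; the input samples of the series were not analysed here. The authors deposited a separate list for each library, and none is pooled. The submitters' processing notes name cutadapt 1.8.1, Bowtie2 2.2.5, deepTools 2.3.6, MACS2 2.1.1 and the build mm10; caller settings and the control are not given in the sources used here. The authors' columns hold a score per peak, a fold enrichment (ratio), and −log10 of the p-value and of the q-value. These are the authors' own values and were used to rank or filter peaks within a list. The lists hold no read counts, so depth is unknown, and a place without a peak is not one without signal.

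The members and gene lists were chosen with earlier results of these data known. Genes came from RefSeq GRCm38.p6, the assembly that mm10 stands for, which gives no exons; start sites and strands came from its promoter table, and Klf5 distances are from the lower-coordinate end. All 26 Klf and Sp genes named were found. The highest coordinate of any peak or gene stood in for each chromosome's length (2632 Mb in all). Windows with a peak in fewer than 2 libraries were not tested. The stage test took the between-stage sum of squares over every distinct labeling of the libraries (138600 for H3K27ac, 945 for KLF4; smallest possible p 7.22e-06 and 0.00106), with Benjamini-Hochberg adjustment over all genes tested and a threshold of 0.05. Regions were merged peaks overlapped (by 1 bp or more) by at least 2 libraries of a stage, merged over stages. A percent "top" is the rank of a peak by the authors' p over the length of its list, and tied peaks share their mean rank. Regions named by rule are, per gene and mark, the one in most libraries and the best-ranked of each class; other regions, including those over 10 kb, were chosen after their values were seen.

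Numbers 1 and 2 of batch DG-3458 do not pair the libraries by any label. The code (Python 3.11.15, numpy 2.4.6, pandas 2.3.3, numba 0.67.0) was tested on simulated data. Alternatives were coverage not divided by the list, the gene or the flanks alone, equal numbers of top peaks (17493 for H3K27ac, 21129 for KLF4), a q-value of at most 0.01, an overlap of 50%, regions from any library, permutation within batches or within replicate numbers (also with the day 6 numbers exchanged), and each library left out.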

Additional observations from a re-analysis of the deposited data

How the results depend on the processing

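Of 6 members, 6 were called for H3K27ac in the main test, 5 with equal numbers of top peaks (74.3% of all genes tested) and 6 with coverage not divided by the list (98.5%), over the gene (66.5%), on the flanks (80.7%), with a q-value of at most 0.01 (78.2%) and within batches (79.8%). With the replicate block (8 libraries of batch DG-3458, labels permuted within the numbers 1 and 2) 0 of 6 were called, as were 0 of 20438 genes, where 576 labelings allow no p under 0.0417; 5 of 6 members and 9445 genes were at an unadjusted p of at most 0.05. Differences between number 1 and 2 correlated across stages at r = -0.04 to 0.08 in 6 comparisons. Such values of peak coverage cannot decide whether a number stands for a shared culture or preparation. The peak names of the 2 day 6 lists of this batch carry the numbers exchanged. With these exchanged (added after seeing the data) the correlation r was -0.08 to 0.08. The replicate block then called 0 of 6 members and 0 of 20438 genes. In it 4 of 6 members and 9359 genes (45.8%) were at an unadjusted p of at most 0.05. The batch and the stage are bound together, MEF and ESC lying in DG-3458 and day 9 in EA-3702 for H3K27ac. For KLF4, 0 of 6 members and 0% of all genes tested were called in each alternative that kept all 10 libraries. Permutation within batches, with 120 labelings, allows no p under 0.0167.

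Below, MEF-only means in both MEF and no ESC library, and ESC-only the reverse, whatever the other stages held. Shared regions were in all MEF and ESC libraries. Likewise, day 3 regions of KLF4 were in both day 3 and no serum ESC library, and late regions the reverse. With equal numbers of top peaks there were 9 MEF-only, 18 ESC-only and 12 shared regions, and 5 day 3 regions of KLF4. With a q-value of at most 0.01 there were 45 ESC-only regions. For KLF4 there were then 8 kept and 3 day 3 regions. Leaving out 1 library of day 3 or day 6, which leaves 2 in that stage, gave 6 members called for H3K27ac each time. Of all genes tested, 76.3% to 85.0% were called in these settings. Leaving out each library in turn gave 25 to 42 MEF-only, 77 to 139 ESC-only and 28 to 32 shared regions. For KLF4 it gave 15 to 16 kept, 11 to 21 day 3 and 15 to 30 late regions. The high counts came where a stage was left with 1 library, whose peaks then all counted: 42 and 39 MEF-only regions without MEF libraries 1 and 2, 129 and 139 ESC-only regions without ESC libraries 1 and 2, 19 and 21 day 3 regions without the day 3 libraries of EA-3702 and DG-4040, and 30 late regions without the ESC library of EA-2697. The share of KLF4 regions under H3K27ac was 50.7% to 67.7% at day 3, 36.2% to 52.2% at day 6, 80.5% to 93.8% at day 9 and 83.1% to 87.5% in ESC on leaving out each library (87.0% without the ESC library of EA-2643 and 85.9% without the 2i library of EA-3702). With equal numbers of top peaks the share was 49.3% for day 3, 72.2% for day 9 and 78.6% for ESC. With an overlap of 50% these were 52.7% for day 3, 43.1% for day 6 and 71.8% for ESC, and with a q-value of at most 0.01 it was 38.1% at day 6 and 92.0% in ESC. Alternatives on non-overlapping groups were chosen after seeing the data. The count of members with ESC above day 3 for KLF4 was 0 with coverage not divided by the list and 3 over the gene. That of members with day 3 above ESC was 0 on the flanks alone. The shares of all genes under these settings were not computed, so these counts have no background beside them. The causes of these moves were not tested.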
